A study of Mus musculus with 8 samples.

Results

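The interferon response and the MHC class I antigen presentation pathway were examined in the striatum of mice that carry an expanded Huntington's disease repeat, as a set of 36 named genes. A member was measured where the array had a probe set, the group of short probes read out as 1 value, that the platform annotation assigned to that gene alone, and each gene was represented by the brightest such probe set over the 8 arrays. This left 34 of the 36 members, among 18193 genes tested in all. Isg15 and H2-T23 had probe sets shared with other genes and were not analysed here. The CHL2 group held 4 mice aged 22 months whose own Htt gene carries, on both copies (Q150/Q150), an insert of 150 CAG repeats taken from the human gene's exon 1, and the wild-type group held 4 mice of the same age. Mice of both groups were of the strain C57BL/6 X CBA F1 hybrid. CHL2 mice 141, 153 and 154 were female and mouse 191 male, while wild-type mouse 161 was female and mice 170, 180 and 200 male. Each mouse gave 1 array of whole striatal RNA.

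Type I interferons bind a receptor made of Ifnar1 and Ifnar2, and the signal passes through Janus kinases to a complex containing Stat2 and Irf9 that binds interferon-stimulated response elements in the promoters of its targets. The products of those targets block the copying of viruses, sense foreign RNA, and load peptides onto MHC class I molecules, which display them at the cell surface. In healthy brain, class I molecules are found on endothelium, on microglia and at lower levels on neurons, where they are also known for roles at synapses.

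Of the members that were higher in CHL2 striatum, 8 had a promoter in RefSeq's table of the mouse (build GRCm38.p6), which gives 250 bases before and 50 after the start of the gene. The promoters of the members with the largest changes in the MHC and effector groups are shown because the interferon response element, or a form of it that is shorter by a base, can be read in them. Capitals mark matches, on either strand, to the core of the response element (GAAA, any 2 bases, GAAA) in B2m, Ifit1 and Ifit3, and to the shorter GAANNGAAA in H2-D1 and H2-K1. The promoter of Ifnar2, a higher member outside these groups, held neither form and is not shown.

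B2m, chr2:122147437-122147736, plus strand: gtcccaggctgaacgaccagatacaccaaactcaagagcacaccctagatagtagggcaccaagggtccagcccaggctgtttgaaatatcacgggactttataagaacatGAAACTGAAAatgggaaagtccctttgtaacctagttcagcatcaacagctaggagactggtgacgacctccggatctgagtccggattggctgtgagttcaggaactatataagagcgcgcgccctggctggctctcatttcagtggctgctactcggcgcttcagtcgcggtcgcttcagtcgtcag
Ifit1, chr19:34640639-34640938, plus strand: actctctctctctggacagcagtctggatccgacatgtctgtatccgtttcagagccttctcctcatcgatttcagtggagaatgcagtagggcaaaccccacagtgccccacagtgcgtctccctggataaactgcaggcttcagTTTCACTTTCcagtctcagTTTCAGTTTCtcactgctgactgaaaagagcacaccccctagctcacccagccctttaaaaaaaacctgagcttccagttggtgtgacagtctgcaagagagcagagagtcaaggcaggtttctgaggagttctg
Ifit3, chr19:34583279-34583578, plus strand: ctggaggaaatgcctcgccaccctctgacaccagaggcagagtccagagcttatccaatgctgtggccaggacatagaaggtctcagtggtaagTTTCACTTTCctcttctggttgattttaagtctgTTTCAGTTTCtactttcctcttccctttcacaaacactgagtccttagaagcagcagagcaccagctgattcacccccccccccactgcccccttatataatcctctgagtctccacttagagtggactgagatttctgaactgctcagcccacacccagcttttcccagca
H2-D1, chr17:35262844-35263143, plus strand: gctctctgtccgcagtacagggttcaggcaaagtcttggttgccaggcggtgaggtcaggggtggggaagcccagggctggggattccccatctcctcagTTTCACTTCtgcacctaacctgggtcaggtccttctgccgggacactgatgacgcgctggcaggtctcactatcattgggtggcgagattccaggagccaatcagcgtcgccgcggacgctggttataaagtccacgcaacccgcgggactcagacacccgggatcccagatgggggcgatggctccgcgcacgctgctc
H2-K1, chr17:34000298-34000597, minus strand: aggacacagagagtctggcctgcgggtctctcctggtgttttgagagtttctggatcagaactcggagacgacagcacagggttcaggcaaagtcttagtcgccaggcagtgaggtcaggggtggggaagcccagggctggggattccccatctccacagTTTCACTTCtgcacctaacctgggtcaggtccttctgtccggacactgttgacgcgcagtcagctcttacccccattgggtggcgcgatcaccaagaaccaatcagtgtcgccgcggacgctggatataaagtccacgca

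The core, searched on both strands, was present in the promoter of 11 of the 27 measured members found in the table, against 1079 of all 27025 genes (3.99%). It was present in 3 of 8 members that were higher in CHL2 mice and in 8 of 19 that did not pass the test, so it was not limited to the members that changed. The shorter GAANNGAAA, which was added after the values were seen and whose matches overlapped core matches in Ifih1 and Stat2, was found in 8 of the 27 members, among them Xaf1 and Trim25, and in 8.68% of all genes. At least 1 of these forms was found in 7 of the 8 higher members, in 9 of the 19 others and in 11.9% of all genes. Because the shorter form was added with the values known, this difference between higher members and others is not a test of the element. The STAT-binding GAS element, searched as TTCNNNGAA, was found in 8 of the 27 members, Ifnar2 being the member among them that was higher in CHL2 mice, and in 9.55% of all genes.

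The arrays were similar in overall signal, with medians of 4.95 to 4.98 on the log2 scale. Y-linked Eif2s3y and Kdm5d, which are absent from females, read 2.94 to 3.44 in the 4 females and 5.61 to 7.69 in the 4 males, matching the recorded sex of all 8 mice. Values under 5, the log2 of 32, are called dim here, although background differs between probe sets. Wild-type mouse 170 stood apart in RNA quality, with a 3' minus 5' difference of 1.37 for the Gapdh control, against 0.32 to 0.43 in the CHL2 mice and 0.32 to 0.34 in the other wild-type mice. For beta-actin this difference was 2.65 in mouse 170, against 1.23 to 1.51 in the CHL2 mice and 1.36 to 1.43 in the other wild-type mice. The difference between the groups did not pass for beta-actin (two-sided exact permutation p = 0.486 over 70 assignments, the smallest possible being 0.0286), and the p for Gapdh was higher. All 9 measured medium spiny neuron markers, among them Scn4b and Penk, passed the test as lower in CHL2 mice, and all of them read 8.79 or more in every mouse, which checks the labelled tissue. Htt itself had a log2 change of -0.67 (limma adjusted p = 0.00101). In whole tissue, fewer cells of a type and less RNA per cell cannot be told apart.

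Of the 34 measured members, 9 rose in CHL2 striatum, 0 fell and 25 did not pass the test. They were led by the MHC class I heavy chains H2-D1 at 2.10-fold and H2-K1 at 1.76-fold and by the interferon receptor chain Ifnar2 at 1.56-fold, while the other 6 rose between 1.27-fold and 1.44-fold. Calls rest on limma with sex as a term and a Benjamini-Hochberg adjusted p under 0.05 over all 18193 genes, and each log2 change is CHL2 minus wild type at equal sex. Over all genes 6.4% were higher and 6.01% lower by this rule, against 26.5% higher among the members. At an unadjusted p under 0.05, 15 members were higher and 2 lower. The share of all genes at that looser rule is not given here, and the 6.4% and 6.01% do not apply to it. The median log2 change was 0.22 over the members and 0.01 over all genes, and 28 members lay above 0 and 6 below, where 51.2% of all genes lay above 0. For 14 members the ranges of the groups were apart, all higher in CHL2 mice, while groups were apart for 20.7% of all genes in either direction and 11.4% with CHL2 higher.

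The count depended on the 2 mice that were alone in their group by sex. With sex in the fit and either of them left out, the genotype change rested on 1 mouse in a group. Without mouse 191 it set 3 CHL2 females against wild-type mouse 161, and without mouse 161 it set CHL2 mouse 191 against 3 wild-type males. Without CHL2 mouse 191 the members that passed were H2-D1 and H2-K1, a count of 2, and without wild-type mouse 161 they were H2-D1, H2-K1 and Ifnar2, a count of 3. Fewer genes passed in these fits altogether, 702 without mouse 191 and 864 without mouse 161 in either direction, where 2258 passed with all mice. When sex was dropped from these fits as well, 9 members rose without 191 and 9 without 161, not the same 9 as with all mice. Without 191, Tapbp, Ifi35 and Rtp4 passed while B2m, Ifit3 and Xaf1 did not. Without 161, Ifi35 and Rtp4 passed while Ifit3 and Xaf1 did not. The shares of all genes that passed with sex dropped are not given here. Without mouse 170, whose RNA quality stood apart, 6 members rose and 1, Stat2, fell.

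**Figure D1:**
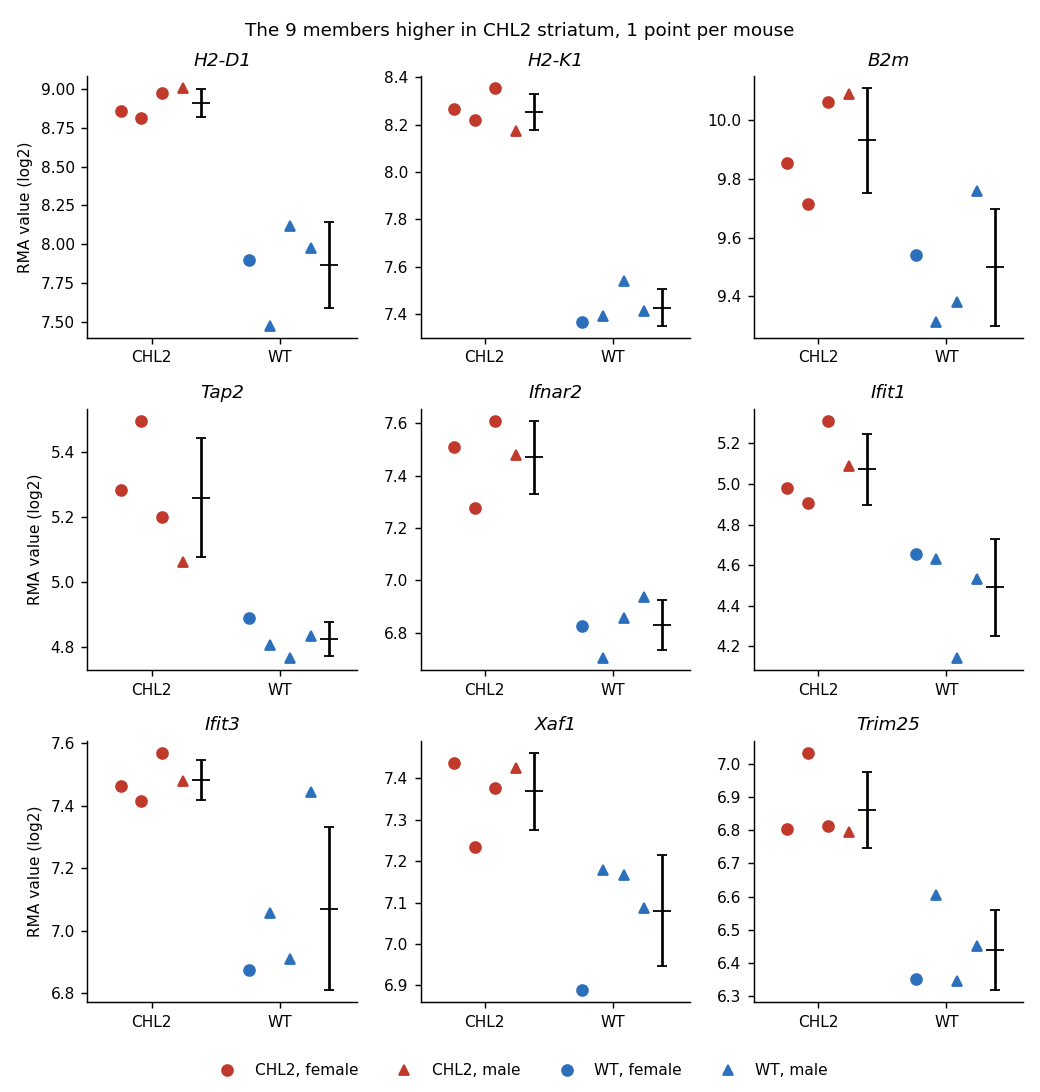
RMA values on the log2 scale (vertical axis, scaled to each gene) of the 9 members that were higher in CHL2 mice, with 1 point per mouse and the mean ± SD of 4 mice beside each group. The groups are apart for H2-D1, H2-K1, Tap2, Ifnar2, Ifit1, Xaf1 and Trim25, while for B2m and Ifit3 a wild-type mouse, number 200, lies among the CHL2 values.

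The MHC class I and peptide loading genes held the highest share of members that rose, H2-D1 and H2-K1 having the largest changes of all 34. Of 7 measured members in this group 4 rose and 0 fell, with a median log2 change of 0.35. H2-D1, a classical class I heavy chain that presents peptides to cytotoxic T cells, read 8.86, 8.81, 8.97 and 9.00 in CHL2 mice, against 7.90, 7.47, 8.11 and 7.97 in wild-type mice. All CHL2 mice were above all wild-type mice, and the spread was wider in the wild-type group. Means were 8.91 ± 0.09 in CHL2 and 7.86 ± 0.28 in wild-type mice (SD, n = 4 each), and the limma log2 change was 1.07 (SE 0.15, adjusted p = 0.00112).

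H2-K1, the other classical heavy chain, read 8.27, 8.22, 8.35 and 8.17 in CHL2 mice, against 7.37, 7.39, 7.54 and 7.41 in wild-type mice. The gap between the groups was several times the spread within either of them. Its log2 change was 0.82 (SE 0.09, limma adjusted p = 0.000274), the lowest adjusted p among the members. B2m, the light chain that all class I molecules need to reach the surface, read 9.85, 9.72, 10.06 and 10.09 in CHL2 mice, against 9.54, 9.31, 9.38 and 9.76 in wild-type mice. Wild-type mouse 200 lay above CHL2 mouse 153, so these groups overlapped. The log2 change of B2m was 0.47 (SE 0.14, limma adjusted p = 0.0472), and the call was lost without any 1 of mice 141, 154, 191, 161, 170 and 180, with adjusted p between 0.0618 and 0.406.

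Tap2, a chain of the transporter that carries peptides into the endoplasmic reticulum, read 5.28, 5.49, 5.20 and 5.06 in CHL2 mice, against 4.89, 4.81, 4.77 and 4.83 in wild-type mice. All wild-type values were dim and all CHL2 values lay above them. Its log2 change was 0.35 (SE 0.10, limma adjusted p = 0.0400), and with values held at a floor of 5 it was 0.19 (adjusted p = 0.179). The call was lost without any 1 of mice 141, 191, 161, 170, 180 and 200, with adjusted p between 0.0542 and 0.362. Its partner chain Tap1 read 5.01 to 5.14 in CHL2 mice, against 4.87 to 4.99 in wild-type mice, a log2 change of 0.10 (adjusted p = 0.510). Tapbp, or tapasin, which holds class I molecules beside the transporter, read 7.64 to 8.08 in CHL2 mice, against 7.15 to 7.63 in wild-type mice. Its groups did not overlap, but its log2 change of 0.35 did not pass with sex in the fit (limma adjusted p = 0.121) and passed without it (adjusted p = 0.0318). Nlrc5, a transactivator of class I genes, was dim in all mice, at 3.56 to 3.85 in CHL2 and 3.62 to 3.76 in wild-type mice.

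H2 genes are close in sequence and highly polymorphic, and their probe sets did not all move alike. Of 9 probe sets for H2-D1, tested among all 45037 probe sets that are not controls, 3 rose. Those were the brightest one, a second bright one at 8.75 to 8.94 in CHL2 mice against 7.61 to 8.14 in wild-type mice (log2 change 0.89, limma adjusted p = 0.00321), and a dimmer one at 4.70 to 5.16 against 4.01 to 4.37 (log2 change 0.76, adjusted p = 0.00728). Another 5 were dim in all mice with log2 changes from 0.03 to 0.24, none past the threshold.

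The remaining probe set of H2-D1 lay in the opposite direction. It read 3.80, 3.74, 3.92 and 3.56 in CHL2 mice, against 5.03, 4.29, 3.64 and 4.93 in wild-type mice (log2 change -0.97, limma adjusted p = 0.0606), with wild-type mice 161, 170 and 200 above every CHL2 mouse and mouse 180 among them. For H2-K1, 2 of 4 probe sets rose, the second reading 7.88 to 8.30 in CHL2 mice against 7.19 to 7.63 in wild-type mice (log2 change 0.71, adjusted p = 0.0146). The other 2 were dimmer and did not pass, with log2 changes of 0.24 (adjusted p = 0.272) and -0.16 (adjusted p = 0.585). Averaged over its probe sets, H2-D1 had a log2 change of 0.25 (adjusted p = 0.0571), while H2-K1 kept its call. The labels do not say which H2 alleles each mouse carried, and signal shared between H2 genes was not tested.

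**Figure D2:**
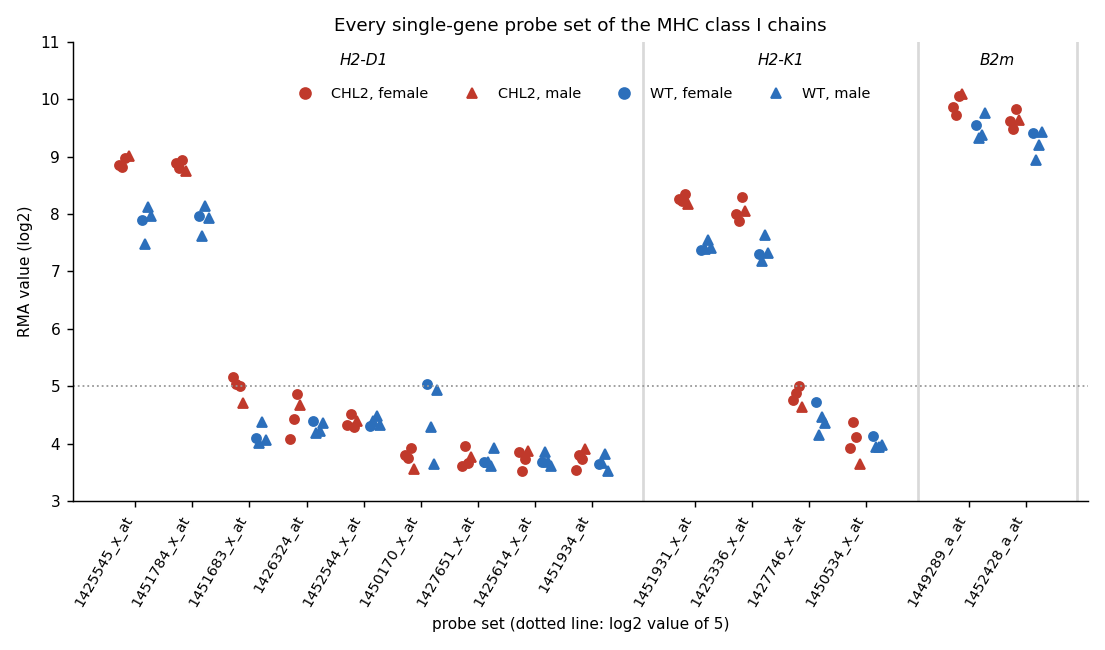
RMA values on the log2 scale of every single-gene probe set of H2-D1, H2-K1 and B2m, ordered by brightness within each gene, with 1 point per mouse and CHL2 mice left of wild-type mice. The bright probe sets of H2-D1 and H2-K1 separate the groups, and 1 dim probe set of H2-D1 has 3 wild-type mice above the CHL2 mice.

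In RefSeq's gene order on chromosome 17, 70 tested genes that are not members lie between H2-K1 and H2-D1. Of these 1, Abhd16a, was higher in CHL2 mice and 3, H2-Ke6, BC051142 and Vwa7, were lower by the same rule, where 6.4% of all genes were higher and 6.01% lower, with a median log2 change of -0.03. This stretch was chosen after the values were seen.

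Among receptors and sensors, 1 of 4 members rose. Ifnar2, the receptor chain that binds type I interferon most tightly, read 7.51, 7.28, 7.61 and 7.48 in CHL2 mice, against 6.83, 6.70, 6.85 and 6.93 in wild-type mice. Every CHL2 value exceeded every wild-type value, and the log2 change was 0.64 (SE 0.10, limma adjusted p = 0.00296). Its call was lost without mouse 191. The other 2 probe sets of Ifnar2 were dimmer and had log2 changes of -0.12 and -0.16, neither past the threshold, and the gene's change averaged over its probe sets was 0.12 (adjusted p = 0.413). Its partner Ifnar1 read 6.97 to 7.12 in CHL2 mice, against 6.94 to 7.12 in wild-type mice, with a log2 change of 0.01 and a 95% interval from -0.19 to 0.20. The second probe set of Ifnar1 read 5.53 to 5.89 in CHL2 mice, against 5.25 to 5.78 in wild-type mice. Its log2 change was 0.22, with a 95% interval from -0.10 to 0.54, and it did not pass.

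The sensors of double-stranded RNA did not pass the test. Ifih1, which encodes MDA5, read 4.86 to 4.98 in CHL2 mice, against 4.49 to 5.11 in wild-type mice (log2 change 0.21, limma adjusted p = 0.344). Ddx58, which encodes RIG-I, read 4.53 to 4.79 in CHL2 mice, against 4.57 to 4.69 in wild-type mice (log2 change 0.02, adjusted p = 0.919). Most of these values were dim, which limits what they can show.

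None of the 5 transcription factors passed the test, and at an unadjusted p under 0.05 Stat2 alone lay apart, on the lower side. Stat2, a subunit of the complex that carries the type I signal, read 4.51, 4.62, 4.57 and 4.24 in CHL2 mice, against 4.84, 4.44, 4.63 and 4.52 in wild-type mice. All its values were dim and the groups overlapped, with a log2 change of -0.28 (limma adjusted p = 0.0533) that was -0.12 without the sex term (adjusted p = 0.533). Irf9, the DNA-binding partner in that complex, read 5.97, 5.40, 5.76 and 5.48 in CHL2 mice, against 5.28, 5.10, 5.27 and 5.59 in wild-type mice. Its log2 change was 0.30 (SE 0.16, adjusted p = 0.279), with wild-type mouse 200 among the CHL2 values.

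Irf3, which switches on the interferon genes themselves, read 7.60, 7.60, 7.60 and 7.39 in CHL2 mice, against 7.50, 7.41, 7.22 and 7.31 in wild-type mice (log2 change 0.08, limma adjusted p = 0.587). The other 3 probe sets of Irf3 had log2 changes of -0.34, -0.01 and 0.12. Irf7, which amplifies that step and is itself induced by interferon, was dim at 4.79, 4.59, 4.48 and 4.24 in CHL2 mice, against 4.42, 4.54, 4.37 and 4.50 in wild-type mice (log2 change -0.02, adjusted p = 0.949). Irf1, an activator of class I and other interferon gamma targets, read 6.90 to 7.14 in CHL2 mice, against 6.83 to 7.02 in wild-type mice (log2 change 0.06, adjusted p = 0.763). The 95% intervals ran from -0.09 to 0.26 for Irf3, from -0.28 to 0.24 for Irf7 and from -0.14 to 0.26 for Irf1. Changes inside these intervals were not excluded.

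The genes that restrain the pathway were both dim in all mice. Usp18, which removes Isg15 from proteins and blocks signalling at Ifnar2, read 4.04, 3.97, 4.26 and 4.13 in CHL2 mice, against 3.83, 3.95, 3.52 and 3.89 in wild-type mice. Its groups did not overlap, and its log2 change of 0.30 did not pass (limma adjusted p = 0.150). Socs1, an inhibitor of Janus kinases, read 3.55 to 3.95 in CHL2 mice, against 3.91 to 3.98 in wild-type mice (log2 change -0.25, adjusted p = 0.144).

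**Figure D3:**
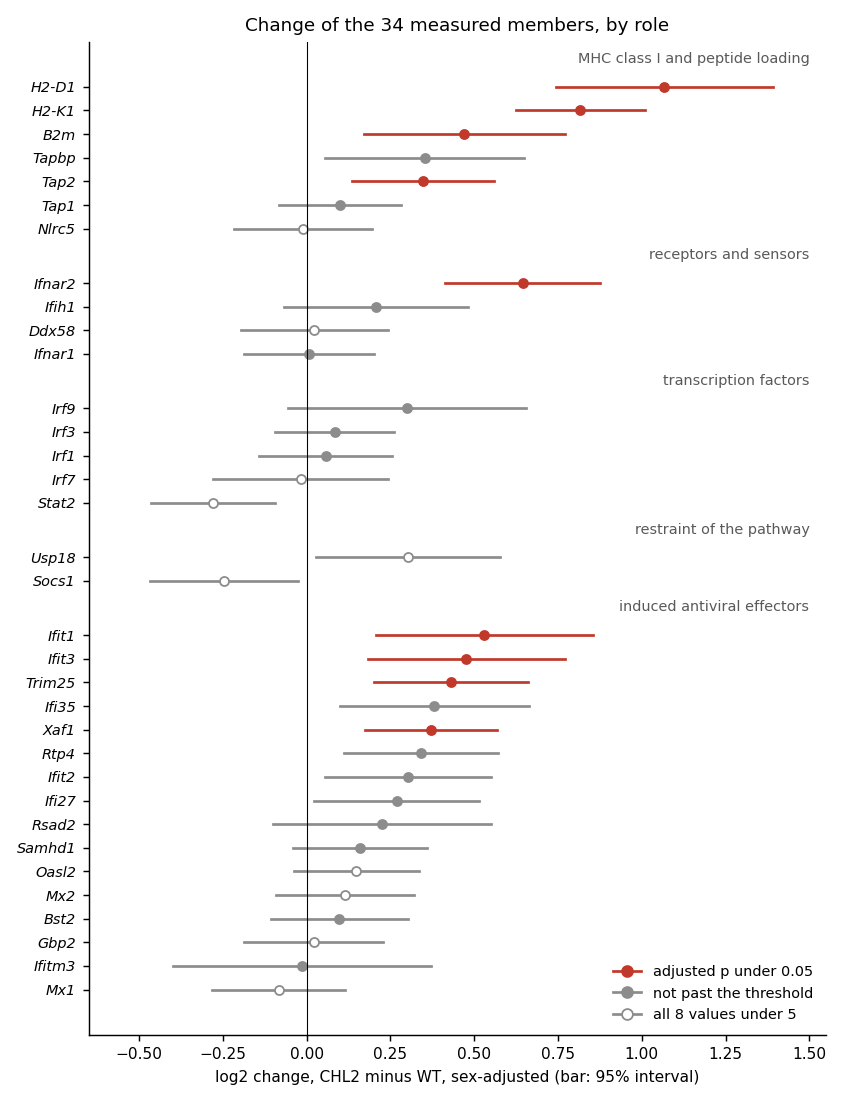
Sex-adjusted log2 change (horizontal axis, CHL2 minus wild type) with its 95% interval for the 34 measured members, grouped by role, 4 mice per group. The 9 filled red points past the threshold lie between 0.35 and 1.07, and the 10 open points mark members whose 8 values all lay under 5.

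Of 16 measured antiviral effectors induced by interferon, 4 rose and 0 fell, with a median log2 change of 0.25. Ifit1, which binds viral RNA that lacks the host's cap marks, read 4.98, 4.91, 5.31 and 5.09 in CHL2 mice, against 4.66, 4.63, 4.14 and 4.53 in wild-type mice. The groups were apart, but 6 of its 8 values were dim. Its log2 change was 0.53 (SE 0.15, limma adjusted p = 0.0391), and at a floor of 5 it was 0.10 (adjusted p = 0.492). The call was also lost without any 1 of mice 154, 191, 161 and 200, with adjusted p between 0.0600 and 0.351.

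Ifit3, which stabilises Ifit1 on its target, read 7.46, 7.42, 7.57 and 7.48 in CHL2 mice, against 6.87, 7.06, 6.91 and 7.45 in wild-type mice. The CHL2 mice were close together, and wild-type mouse 200 lay among them. Its log2 change was 0.48 (SE 0.13, limma adjusted p = 0.0419), and the call was kept without mouse 200 and lost without any of the other 7 mice, with adjusted p from 0.0567 to 0.383. The mouse genome holds a near-identical neighbour of this gene, so its signal may include that copy.

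Xaf1, an interferon-induced partner of the apoptosis inhibitor XIAP, read 7.44, 7.24, 7.38 and 7.43 in CHL2 mice, against 6.89, 7.18, 7.17 and 7.09 in wild-type mice. The lowest CHL2 value lay just above the highest wild-type one, and the log2 change was 0.37 (SE 0.09, limma adjusted p = 0.0203). Trim25, a ubiquitin ligase that activates RIG-I, read 6.81, 7.03, 6.81 and 6.79 in CHL2 mice, against 6.35, 6.61, 6.35 and 6.45 in wild-type mice. Its groups did not overlap, with a log2 change of 0.43 (SE 0.10, adjusted p = 0.0211), and a second probe set rose by 0.64 (adjusted p = 0.0167) while the remaining one, dim in all mice, stood at 0.03. The second probe set of Xaf1 was dim, at -0.10. The calls of Xaf1 and Trim25 were lost without mouse 161 and without mouse 191. When sex was dropped as well, Trim25 passed without either mouse, while Xaf1 (adjusted p = 0.107 and 0.0936) and Ifit3 (adjusted p = 0.0875 and 0.0644) did not.

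Several further effectors had separate groups without passing the test. Ifi35, which pairs with Nmi, read 5.82 to 6.15 in CHL2 mice, against 5.10 to 5.66 in wild-type mice (log2 change 0.38, limma adjusted p = 0.0809). Its other 2 probe sets had log2 changes of 0.32 and 0.27. The first of these read 5.14 to 5.19 in CHL2 mice, against 4.72 to 4.90 in wild-type mice. It passed with every single-gene probe set tested alone (adjusted p = 0.0434), and not among all probe sets that are not controls (adjusted p = 0.0505). Rtp4, a negative regulator of RNA sensing, read 5.11 to 5.37 in CHL2 mice, against 4.69 to 5.00 in wild-type mice (log2 change 0.34, adjusted p = 0.0581). Ifit2, a relative of Ifit1, read 5.27 to 5.71 in CHL2 mice, against 5.08 to 5.22 in wild-type mice (log2 change 0.30, adjusted p = 0.113). These 3 and Tapbp passed without the sex term, where the members that rose numbered 13, the 9 above included. The share of all genes that rose in that fit is not given here, and the share from the fit with sex does not apply to it. Oasl2, of the oligoadenylate synthetase family, was dim at 3.56 to 3.79 in CHL2 mice, against 3.43 to 3.55 in wild-type mice (log2 change 0.15, adjusted p = 0.310).

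The other 8 effectors overlapped between the groups. Ifi27, a small mitochondrial and nuclear membrane protein, read 8.59 to 8.94 in CHL2 mice, against 8.42 to 8.64 in wild-type mice (log2 change 0.27, limma adjusted p = 0.154). Rsad2, or viperin, read 5.72 to 5.96 in CHL2 mice, against 5.46 to 6.18 in wild-type mice (log2 change 0.22). Samhd1, which depletes nucleotides needed by retroviruses, read 6.90 to 7.06 in CHL2 mice, against 6.77 to 7.04 in wild-type mice (log2 change 0.16). None of these 3 passed, and the other 4 probe sets of Samhd1 had log2 changes between -0.01 and 0.03.

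Bst2, or tetherin, which holds budding viruses at the membrane, read 4.82 to 5.03 in CHL2 mice, against 4.70 to 4.93 in wild-type mice (log2 change 0.10). Ifitm3, which blocks viral entry at endosomes, read 7.62 to 7.76 in CHL2 mice, against 7.25 to 8.11 in wild-type mice, a log2 change of -0.01 with a 95% interval from -0.40 to 0.37. The widest spread within a group among these effectors was that of Ifitm3 in wild-type mice. Mx1 and Mx2, dynamin-like GTPases, and Gbp2, a guanylate-binding protein, were dim throughout. Mx1 read 3.11 to 3.37 in CHL2 mice, against 3.20 to 3.34 in wild-type mice (log2 change -0.08). Mx2 read 4.43 to 4.61 in CHL2 mice, against 4.31 to 4.56 in wild-type mice (log2 change 0.11). Gbp2 read 4.38 to 4.50 in CHL2 mice, against 4.29 to 4.60 in wild-type mice (log2 change 0.02). Of all 34 members 10 were dim in every mouse, and none of those 10 passed.

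**Figure D4:**
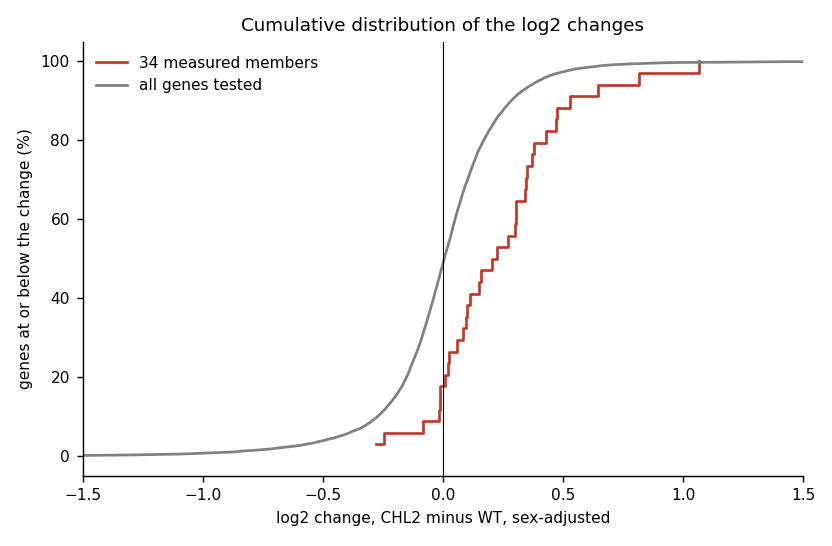
Cumulative share of genes (vertical axis, percent) at or below each sex-adjusted log2 change, CHL2 minus wild type, for the 34 measured members and for all 18193 genes tested. The members' curve lies to the right of that of all genes, with medians of 0.22 and 0.01, and changes beyond 1.5 in either direction are not drawn.

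Over every single-gene probe set of the members, 55 of 73 had a log2 change above 0 and 9 rose, against 3.76% of all single-gene probe sets. With adjustment over all 45037 probe sets 0 fell, and 30 were dim in all 8 mice. At that wider adjustment the brightest probe sets of B2m, Tap2, Ifit1 and Ifit3 did not pass, with limma adjusted p between 0.0708 and 0.0842. The second probe set of B2m read 9.48 to 9.83 in CHL2 mice, against 8.93 to 9.44 in wild-type mice. It did not pass either (log2 change 0.33, adjusted p = 0.228). The 9 members that rose lie on 5 chromosomes, 3 of them on chromosome 17.

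Sex gave no calls among the members. Between females and males 0 of 34 members passed in limma (2 at an unadjusted p under 0.05, lowest adjusted p 0.307), against 0.0275% of all genes. For the interaction of genotype and sex 0 members passed (0 at an unadjusted p under 0.05), against 0.0055% of all genes, with a single mouse in 2 of the 4 combinations.

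Of 55 measured interferon-stimulated genes on a separate list 7 (12.7%) rose and 0 fell, against 6.4% higher and 6.01% lower over all genes, with a median log2 change of 0.07. Parp12, an interferon-induced ADP-ribosyltransferase, rose 2.03-fold, reading 6.77 to 7.18 in CHL2 mice, against 5.87 to 6.22 in wild-type mice (log2 change 1.02, SE 0.09, limma adjusted p = 0.000101). Psme1, a subunit of the proteasome activator PA28, rose 1.57-fold, reading 8.54 to 8.62 in CHL2 mice, against 7.89 to 8.10 in wild-type mice (adjusted p = 0.000813). Psmb10, a catalytic subunit of the immunoproteasome that cuts peptides for class I molecules, rose 1.65-fold, reading 7.61 to 7.87 in CHL2 mice, against 6.82 to 7.16 in wild-type mice (adjusted p = 0.00166). The groups were apart for all 3 genes.

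The other 4 were Gbp6, an interferon-induced GTPase, Nmi, the partner of Ifi35, Trim30a and Irgm1, with log2 changes of 0.45, 0.57, 0.44 and 0.38 and adjusted p between 0.0197 and 0.0438. Gbp6 and Trim30a were dim in all mice. Without the sex term Nmi passed, while Gbp6 (log2 change 0.31, adjusted p = 0.107), Trim30a (0.27, adjusted p = 0.206) and Irgm1 (0.28, adjusted p = 0.0948) did not. Without mouse 191 and without mouse 161 the calls on this list were Parp12, Psmb10 and Psme1 in either case, a count of 3 (5.45%). The 6.4% over all genes is from the fit with all mice. Of all 18193 genes, 702 passed without mouse 191 and 864 without mouse 161, both directions together. When sex was dropped too, 5 rose and 1, Tdrd7, fell in either case, and the shares of all genes in those fits are not given here. On a list of 17 other antigen presentation genes 2 rose, again Psmb10 and Psme1, and 0 fell, with a median log2 change of 0.23. These lists share Psmb8, Psmb9, Psmb10 and Psme1, so they are not independent of each other.

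Among 17 interferon ligands and signalling genes 0 rose and 1 fell, with a median log2 change of -0.03. That gene was Jak2, a kinase of the interferon gamma receptor and other cytokine receptors, which read 8.61, 8.33, 8.56 and 8.84 in CHL2 mice, against 9.22, 9.38, 9.08 and 9.14 in wild-type mice. The groups were apart, 1.45-fold lower in CHL2 mice (log2 change -0.54, SE 0.12, limma adjusted p = 0.0159), and the call was lost without mouse 161. Jak1 had separate groups, higher in CHL2 mice, but did not pass with sex in the fit (log2 change 0.30, limma adjusted p = 0.0539). With sex dropped and any 1 mouse left out, Jak1 passed as higher and Jak2 as lower each time. Over this list 6 log2 changes lay above 0 and 11 below. Of 20 nucleic acid sensing genes 0 rose and 0 fell, with a median log2 change of 0.01. Of 6 MHC class II genes 0 rose and 0 fell, with a median of 0.13. Over all genes 6.4% were higher and 6.01% lower, which limits what a count of 0 shows in lists this short.

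None of the measured microglial, endothelial, mural cell or lymphocyte markers passed as higher in CHL2 mice. Whether the content of these cells had a part in the members' rise was not tested. Of 14 microglial markers 0 passed in either direction, and their summed linear signal ran from 5910 to 6427 in CHL2 mice and from 5795 to 6286 in wild-type mice. Of 12 endothelial markers 0 rose and 1, Cdh5, fell, with sums of 916 to 1037 in CHL2 and 1028 to 1238 in wild-type mice, and of 9 mural cell markers 0 passed, with sums of 1091 to 1182 in CHL2 and 1170 to 1489 in wild-type mice. Among 13 lymphocyte markers 10 were dim in all mice, 0 rose and 1, Cd4, fell. The T cell genes Cd3e and Cd8a read 5.53 to 5.63 and 5.16 to 5.36 in CHL2 mice, against 5.60 to 5.68 and 5.22 to 5.52 in wild-type mice, and neither passed. The lymphocyte sums were 415 to 471 in CHL2 and 609 to 729 in wild-type mice, and without Cd4, a comparison added after the values were seen, they were 231 to 241 in CHL2 and 229 to 249 in wild-type mice.

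Astrocyte markers were mixed, with 2 of 10, Gfap and S100b, higher and 1, Slc4a4, lower. Of the 10, 3 had a log2 change above 0 and 7 below, with a median of -0.12. Their sums were 16111 to 18091 in CHL2 and 18041 to 19644 in wild-type mice. Of 7 oligodendrocyte markers 0 rose and 1 fell, with sums of 26343 to 28644 in CHL2 and 27244 to 31778 in wild-type mice. The 9 medium spiny neuron markers had sums of 12383 to 14216 in CHL2 and 32220 to 36174 in wild-type mice. Of 8 choroid plexus markers 0 passed, but their sums varied widely within the groups, from 2076 to 18018 in CHL2 and from 3498 to 16182 in wild-type mice. The part of these neuronal, glial and choroid plexus differences in the members' rise was not tested.

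Each member was centred on its own mean across the 8 mice, and a mouse's score, its average over the 34 centred log2 values, ran from 0.08 to 0.17 in CHL2 mice and from -0.20 to -0.05 in wild-type mice. The lowest CHL2 score was that of mouse 191 and the highest wild-type score that of mouse 200. On the same measure the other antigen presentation genes ran from 0.09 to 0.13 in CHL2 mice and from -0.14 to -0.08 in wild-type mice, and microglial markers from -0.04 to 0.08 in CHL2 mice and from -0.14 to 0.08 in wild-type mice. The groups were thus apart for the antigen presentation list and overlapped for microglia.

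**Figure D5:**
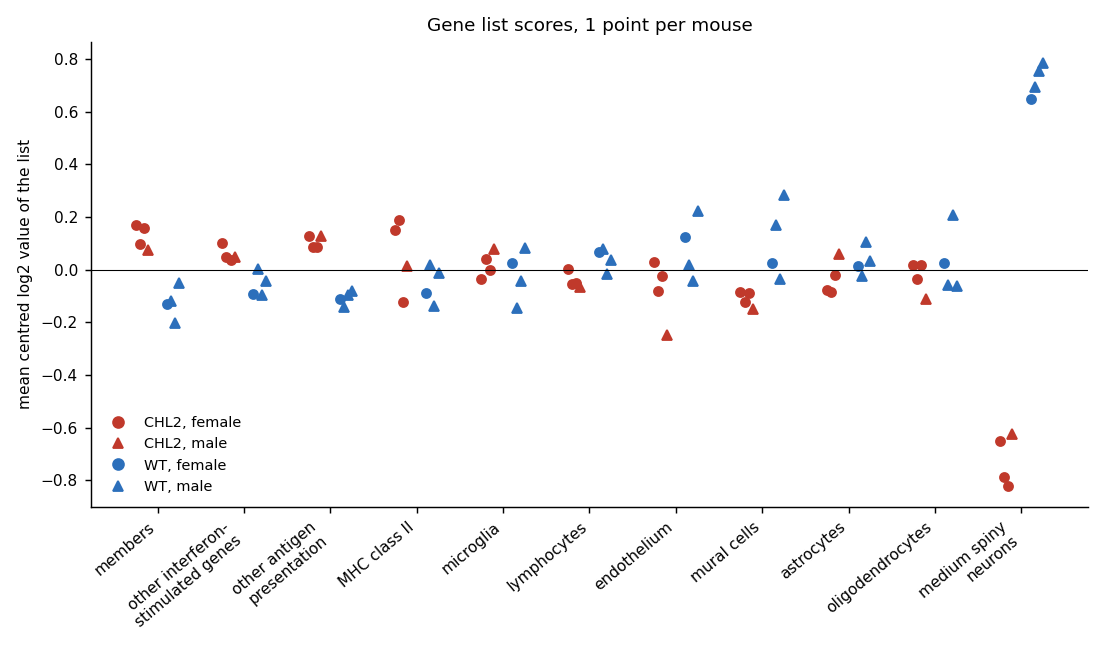
Mean centred log2 value (vertical axis) of the members and of 10 other gene lists, with 1 point per mouse and CHL2 mice left of wild-type mice. CHL2 mice lie above wild-type mice for the members, other interferon-stimulated genes and other antigen presentation genes, below them for mural cells and far below for medium spiny neurons, and overlap them for the other 6 lists. The lists of other interferon-stimulated and other antigen presentation genes share Psmb8, Psmb9, Psmb10 and Psme1.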

How the data were processed

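Each of 4 CHL2 and 4 wild-type mice gave striatal RNA for 1 Affymetrix mouse expression array. The authors deposited log2 values, made with RMA and the affy package per the submitters' processing notes. The notes name no versions. RMA forces arrays to 1 distribution, hides shifts shared by most genes and compresses dim genes. Of 45101 probe sets 64 controls were left out, and 34945 of the rest had 1 gene symbol, 932 several and 9160 no entry in the annotation used here. Genotype and recorded sex were terms in limma 3.58.1 (R 4.3.3, lmFit and eBayes). The fit was tested on simulated data. Promoters are RefSeq sequences of build GRCm38.p6. The members and lists were chosen with earlier results of these data known. Values in every mouse were given for members past the threshold and for Stat2, Irf9, Irf3, Irf7 and Usp18, and ranges for other members. From the pathway lists the genes past the threshold were given, and Jak1 and Tdrd7 for fits without sex. Alternatives changed the sex term, prior, scaling, filter, probe set rule, weights, moderation, floor and threshold, and left out each mouse. No single measure of depth applies to arrays, and 4 mice per group limit the precision.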

Additional observations from a re-analysis of the deposited data

Results flagged for a closer look

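In 3 of 68 sets of 4 mice, a single mouse lay further from the rest than Dixon's 95% limit allows, and chance alone flags about 1 set in 20. Trim25 in CHL2 mouse 153 read 7.03, against 6.79 to 6.81 in the other CHL2 mice. Irf3 in CHL2 mouse 191, the male of its group, read 7.39, against 7.60 in each of the others. Ifi27 in CHL2 mouse 153 read 8.59, against 8.89 to 8.94 in the others, and Ifi27 passed the test in limma without that mouse (log2 change 0.32, adjusted p = 0.0465).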

How the results depend on the processing

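The count of higher members was 9, and among the 12 alternatives that kept all mice it was 4 without moderation, 3 at an adjusted p under 0.01 and 5 on the mean of probe sets. Averaging adds dim probe sets and, for H2-D1 and Ifnar2, ones that lay in the opposite direction. Their part in the lower count was not tested. The count of lower members was 0 and became 1 with array weights and at an adjusted p under 0.10, each time Stat2, and 1 with every single-gene probe set tested alone, a dimmer one of Irf3 (log2 change -0.34, limma adjusted p = 0.0450). The median log2 change of 0.22 was 0.36 without genes below the median level (14 members left), 0.13 on the mean of probe sets and 0.12 over every probe set. Leaving out each mouse in turn gave 2 to 10 higher members, 0 to 1 lower and a median of 0.16 to 0.26, and 7 to 11 higher, 0 lower and a median of 0.16 to 0.23 with sex dropped as well. The shares of all genes that passed with sex dropped are not given here. Fits of members that kept their side of the threshold numbered 791 of 888, 64 lost a call, 33 gained one and 0 turned a called direction. H2-K1 passed in every alternative run. No paired analysis was possible because the groups share no replicate number.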

Other observations

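Values outside the comparison were read in the marker lists. Cd4, known from helper T cells, read 7.47 to 7.85 in CHL2 mice, against 8.49 to 8.93 in wild-type mice (log2 change -0.97, limma adjusted p = 0.000701), while the T cell receptor chain Cd3e read 5.53 to 5.63 in CHL2 mice, against 5.60 to 5.68 in wild-type mice. Myh4, a myosin of skeletal muscle, read 3.05 to 4.35 in CHL2 mice, against 3.36 to 7.12 in wild-type mice, the highest value being that of mouse 200, which also had the highest wild-type values of B2m, Ifit3, Irf9 and Ifitm3. Both were named after their values were seen.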
